A study of Homo sapiens with 16 samples.

Results

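Genes of homologous recombination, the Fanconi pathway and other repair of broken DNA were examined in thyroid cancer cells given a p53-activating drug. The 44 members were chosen by what they do, from a list of symbols, and each was found as 1 row of the deposited count table, which holds 25369 genes. The study treated 2 human papillary thyroid carcinoma lines, TPC1 and K1, and sequenced poly(A) RNA on a strand-specific protocol. For each line there were 4 treatments of 24 h: 0.2% DMSO (the vehicle), 10 µM nutlin, 25 µM GSK2830371, and both agents at these doses (the combination). Nutlin blocks MDM2, the main negative regulator of p53, and GSK2830371 inhibits PPM1D, a phosphatase that acts against p53 and DNA damage signaling. Every group held 2 libraries, 16 in all, numbered 1 and 3 in the table for TPC1 and 1 and 2 for K1. In each pair of values below, the library with the lower number comes first. The study's methods describe its replicates in general as independent preparations, but the labels do not say whether the libraries of a group came from separate cultures, so p-values are read as the spread between these samples. Library totals ran from 30789887 to 76648552 counts in TPC1 and from 28888686 to 37161241 in K1. In TPC1 the libraries numbered 1 held 30789887 to 36896529 counts and those numbered 3 held 62853375 to 76648552.

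Homologous recombination copies the missing sequence from an intact sister chromatid, and so works mainly after DNA replication. BRCA proteins prepare resected ends for strand exchange, a family of paralogs supports this step, and helicases with topoisomerases take the joined molecules apart. The Fanconi pathway unhooks interstrand crosslinks through a ubiquitin ligase whose substrate is the FANCD2 and FANCI pair, whereas end joining reseals ends without a template and mismatch repair corrects replication errors. Of the members, 23 belong to recombination and the Fanconi pathway, 12 to break sensing, resection and helicases, and 9 to end joining and mismatch repair. All 44 had counts in all 16 libraries and passed the filter on low values. Levels are given as CPM, a gene's counts per 1000000 counts of the library, and fold changes as log2 values, tested by quasi-likelihood in edgeR with p-values adjusted by Benjamini-Hochberg over all genes tested. A gene was called at an adjusted p under 0.05 and a fold change above 1.5.

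The labelled cell type was checked on 7 thyroid follicular markers. *PAX8*, a thyroid transcription factor, was at 326 and 327 CPM in TPC1 and 792 and 749 in K1 with DMSO, and *FOXE1*, another, at 25.5 and 22 in TPC1 and 28.8 and 29 in K1. The prohormone *TG* was low, at 0.163 and 0.304 CPM in TPC1 and 2.79 and 2.77 in K1, and the receptor *TSHR* had 0 counts with DMSO in both lines. In all, 4 of the 7 markers had 0 counts in both TPC1 libraries with DMSO, among them the transcription factor *NKX2-1*, which had 4 and 7 counts in K1. The thyroid label therefore rests on *PAX8* and *FOXE1*, while the other markers were absent or low. Keratin *KRT8* stood at 452 and 517 CPM in TPC1 and 755 and 784 in K1, and *PTPRC*, carried by leukocytes, had 0 counts in every TPC1 library and at most 2 in any K1 library.

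The first comparison asked what MDM2 inhibition did to the repair genes in TPC1. Summed over the 44 members, the level was 3317 and 3372 CPM with DMSO and 1486 and 1528 CPM with nutlin. Nutlin lowered 36 of the 44 members, against 18% of the 15273 genes tested, and raised 1, against 17.5%. The raised member was at a log2 fold change of 0.57 without DMSO library 3 and 0.57 without nutlin library 3, too small to be called. The median log2 fold change of the members was -1.71, and that of all genes tested -0.002. In bulk RNA, fewer cells of a type and less RNA per cell cannot be told apart. Recombination and Fanconi genes had the lowest median, -2.53, with 19 of 23 lowered. Resection and helicase genes followed at -1.59, with 11 of 12 lowered. End joining and mismatch repair genes were at -0.66, with 6 of 9 lowered and 1 raised. The 7 members that were not called, *PALB2*, *RAD51B*, *RAD51C*, *FANCF*, *RAD50*, *XRCC4* and *PMS2*, lay between -0.23 and 0.35.

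In K1 most members were also lowered by nutlin, and the members spanned a smaller range. Their summed level was 2748 and 2759 CPM with DMSO and 1703 and 1715 CPM with nutlin. Nutlin lowered 30 of the 44 members, against 5.43% of the 15900 genes tested. It raised 0 by edgeR and 0 by DESeq2, with 1 higher at an unadjusted p under 0.05, against 3.84% of all genes raised. The medians were -1.26 for all members, -1.48 for recombination and Fanconi genes, -1.23 for resection and helicases and -0.30 for end joining and mismatch repair. By class, 19 of 23, 9 of 12 and 2 of 9 were lowered. All 30 members lowered in K1 were also lowered in TPC1, which is 83.3% of the 36 lowered there and 100% of those in K1. Of all genes tested in both lines, 730 were lowered in both, 27.7% of those lowered in TPC1 and 89.4% of those in K1. The other 6 of the TPC1 genes were *NBN*, *WRN*, *XRCC5*, *XRCC6*, *NHEJ1* and *PARP1*.

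**Figure D1:**
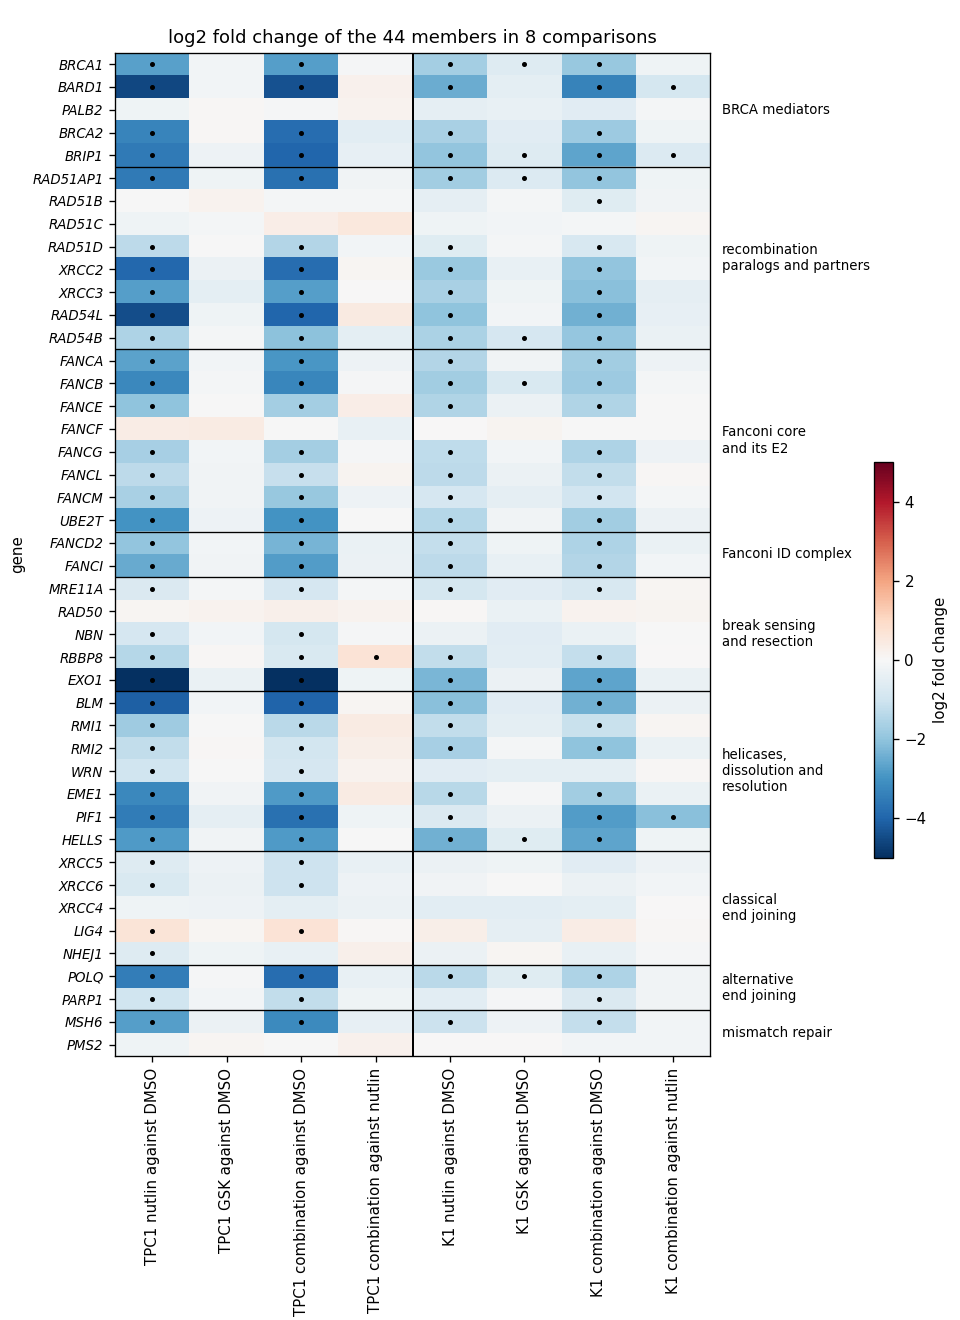
Rows are the 44 members grouped by role, columns are 8 comparisons (4 in TPC1 left of the vertical line, 4 in K1 right of it), color is the log2 fold change and a dot marks a call; GSK is GSK2830371. The nutlin and combination columns are blue in most recombination, Fanconi and helicase rows, down to -5.17 for *EXO1* in TPC1, while the classical end joining rows span -1.04 to 0.69 (TPC1) and -0.55 to 0.37 (K1) with the combination.

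The promoters of the members, most of which moved together, were searched for letters known from genes of the cell cycle. RefSeq promoter sequence on GRCh38.p14, from 250 bases before to 50 after the start, was found for 38 of the 44 members; *RAD54B*, *FANCI*, *NBN*, *RMI2*, *WRN* and *XRCC5* had no entry. An E2F motif, taken as TTTCCCGC, TTTCGCGC, TTTGCCGC or TTTGGCGC on either strand, stood in 9 of the 38 (23.7%). It stood in 3.99% of 27305 genes with an entry and in 6.44% of the 10783 of those tested in TPC1. The 9 were *XRCC2*, *FANCA*, *FANCD2*, *EXO1*, *RMI1*, *HELLS*, *XRCC6*, *MSH6* and *PMS2*, that is 3 of 21 recombination and Fanconi genes, 3 of 9 resection and helicase genes and 3 of 8 end joining and mismatch repair genes. Nutlin lowered 8 of the 9 in TPC1 and 7 in K1, and of the 29 without it 22 and 20. In the 250 bases before the start alone, 4 of 38 members held it (10.5%), beside 3.4% of all genes and 5.44% of those tested. The cell cycle homology letters TTTGAA or TTCGAA, on either strand, were in 4 of 38 members (10.5%), in 19.5% of all genes and in 15.3% of those tested in TPC1, and CCAAT on either strand in 20 (52.6%), 39.7% and 42.8%. Matches of different motifs were counted separately, also where they overlapped. A gene with several starts was counted if any of them held the letters. The 38 members had 55 entries and the 27305 genes had 35116, and the shares were not corrected for the number of starts. A match describes the letters and is not a shown binding site.

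Below are 4 of these promoters, printed 5′ to 3′ on the gene's own strand with the E2F match in capitals. They are the member of each class with the largest nutlin fall in TPC1 among those with a match, and *XRCC4*, the end joining member with the smallest change, for contrast. Where a gene had several starts, the one with the match is shown. *EXO1* had 2 starts and *MSH6* had 4, and in each gene only 1 start held a match. The *XRCC2* sequence is chr7:152676092-152676391 (minus strand), that of *EXO1* chr1:241847954-241848253 (plus strand), that of *MSH6* chr2:47782895-47783194 (plus strand) and that of *XRCC4* chr5:83077297-83077596 (plus strand). Each match lay just after the start, its first base being base 22 of the transcribed side in *XRCC2*, 5 in *EXO1* and 4 in *MSH6*. These letters were not in the *XRCC4* window.
XRCC2: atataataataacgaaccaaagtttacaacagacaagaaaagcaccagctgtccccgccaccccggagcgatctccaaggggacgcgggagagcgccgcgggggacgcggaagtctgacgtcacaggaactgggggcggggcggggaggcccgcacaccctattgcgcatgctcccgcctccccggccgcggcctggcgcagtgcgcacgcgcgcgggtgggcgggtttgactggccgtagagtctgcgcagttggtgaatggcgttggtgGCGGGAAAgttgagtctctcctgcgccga
EXO1: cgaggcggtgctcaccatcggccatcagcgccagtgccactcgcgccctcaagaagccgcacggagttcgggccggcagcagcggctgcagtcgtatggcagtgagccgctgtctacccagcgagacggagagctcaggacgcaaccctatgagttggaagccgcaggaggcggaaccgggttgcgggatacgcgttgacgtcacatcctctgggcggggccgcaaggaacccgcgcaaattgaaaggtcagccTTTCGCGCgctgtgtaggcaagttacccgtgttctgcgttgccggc
MSH6: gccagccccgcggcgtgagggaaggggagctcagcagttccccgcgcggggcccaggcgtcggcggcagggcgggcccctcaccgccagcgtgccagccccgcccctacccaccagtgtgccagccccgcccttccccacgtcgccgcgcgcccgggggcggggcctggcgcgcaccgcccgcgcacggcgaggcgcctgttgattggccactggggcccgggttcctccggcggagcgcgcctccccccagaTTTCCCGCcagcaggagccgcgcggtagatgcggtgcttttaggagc
XRCC4: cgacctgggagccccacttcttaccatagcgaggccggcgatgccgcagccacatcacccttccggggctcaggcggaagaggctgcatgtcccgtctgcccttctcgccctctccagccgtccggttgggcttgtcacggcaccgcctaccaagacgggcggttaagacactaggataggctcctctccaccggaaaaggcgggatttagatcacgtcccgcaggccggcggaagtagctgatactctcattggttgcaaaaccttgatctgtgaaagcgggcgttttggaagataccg

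The BRCA mediators include *BRCA1* and its ring finger partner *BARD1*, *BRCA2*, a mediator of strand exchange, *PALB2*, which bridges the BRCA proteins, and the helicase *BRIP1*. In TPC1, *BARD1* stood at 18.7 and 17.3 CPM with DMSO, 0.844 and 0.691 with nutlin, 16.9 and 16.6 with GSK2830371 and 1.03 and 0.732 with the combination. In K1 it stood at 19.2 and 16.2 CPM with DMSO, 2.91 and 3.32 with nutlin, 11.4 and 13.4 with GSK2830371 and 1.66 and 1.86 with the combination. The nutlin libraries of both lines lay far below their DMSO libraries, with no overlap. With nutlin, *BARD1* fell by 4.55 on the log2 scale in TPC1 (SE 0.16, adjusted p 3.48e-08) and by 2.49 in K1 (SE 0.13, adjusted p 1.27e-08). *BRIP1* in TPC1 was at 29.6 and 22.6 CPM with DMSO, 2.37 and 2.07 with nutlin, 23.5 and 21.6 with GSK2830371 and 1.98 and 1.37 with the combination. *BRIP1* in K1 was at 43.5 and 43.9 CPM with DMSO, 12.2 and 10.2 with nutlin, 26.1 and 30.1 with GSK2830371 and 6.09 and 8.44 with the combination. Again no nutlin library reached a DMSO library, and the log2 fold changes were -3.54 (SE 0.18, adjusted p 4.03e-07) and -1.95 (SE 0.11, adjusted p 2.93e-08). *BRCA1* changed by -2.72 in TPC1 and -1.69 in K1 on this scale, and *BRCA2* by -3.28 and -1.60, all called. *PALB2* was the exception among the 5, with -0.23 and -0.44, neither called.

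Among the recombination paralogs and partners, *RAD54L* and *RAD54B* encode translocases that act in strand exchange. *RAD54L* had 30.3 and 29.1 CPM with DMSO, 1.66 and 1.17 with nutlin, 27.1 and 26 with GSK2830371 and 2.14 and 1.62 with the combination in TPC1. Its K1 libraries had 39.1 and 36.5 CPM with DMSO, 8.83 and 9.84 with nutlin, 33 and 36.1 with GSK2830371 and 6.28 and 8.28 with the combination. Both nutlin groups were clear of DMSO, with log2 fold changes of -4.42 (SE 0.16, adjusted p 3.87e-08) in TPC1 and -2.00 (SE 0.11, adjusted p 1.02e-08) in K1. *RAD54B* had 42.8 and 40.1 CPM with DMSO, 13.5 and 14 with nutlin, 39.4 and 40.4 with GSK2830371 and 9.41 and 9.94 with the combination in TPC1. In K1 the same gene had 22.2 and 22.9 CPM with DMSO, 8.2 and 6.88 with nutlin, 11 and 14.1 with GSK2830371 and 5.59 and 6.61 with the combination. It fell by a like amount in both lines, -1.56 (SE 0.08, adjusted p 4.28e-07) and -1.57 (SE 0.12, adjusted p 3.87e-07), with no overlap of nutlin and DMSO. The *RAD54B* count is uncertain, since 3511 of its 5319 exon bases are shared with *FSBP* on the same strand, and *RAD51D* shares 905 of 11282 with a gene without a symbol. *RAD51AP1*, a cofactor of strand exchange, changed by -3.54 and -1.74, and the paralogs *XRCC2* and *XRCC3* by -3.91 and -2.76 in TPC1 and -1.87 and -1.63 in K1.

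The paralogs did not move as a block. *RAD51D* was lowered less than its partner *XRCC2*, at -1.30 in TPC1 and -0.59 in K1. *RAD51B* and *RAD51C*, which sit in the same family, were not called with nutlin in either line, at -0.01 and -0.22 in TPC1 and -0.45 and -0.20 in K1. The K1 call of *RAD51D* sat at the fold limit: its log2 fold change was -0.54 without DMSO library 2, -0.56 without nutlin library 2 and -0.58 without combination library 1, none of them called. DESeq2, or its size factors in edgeR, also gave -0.58 and no call.

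In the Fanconi core, which with its E2 enzyme *UBE2T* ubiquitinates the FANCD2 and FANCI pair, nutlin lowered 7 of 8 members in each line, against 18% of all genes in TPC1 and 5.43% in K1. *FANCB*, a core subunit, was at 7.18 and 5.54 CPM with DMSO, 0.747 and 0.614 with nutlin, 7.06 and 5.21 with GSK2830371 and 0.678 and 0.589 with the combination in TPC1. In K1 its values were 9.5 and 10.2 CPM with DMSO, 3.12 and 2.74 with nutlin, 5.61 and 6.02 with GSK2830371 and 2.76 and 2.88 with the combination. The nutlin pairs lay below every DMSO library, with log2 fold changes of -3.21 (SE 0.24, adjusted p 4.37e-06) and -1.74 (SE 0.12, adjusted p 1.92e-07). *FANCE*, the subunit that binds FANCD2, was at 13.1 and 13.6 CPM with DMSO, 3.05 and 3.3 with nutlin, 13.9 and 13.5 with GSK2830371 and 4.09 and 3.77 with the combination in TPC1. *FANCE* values in K1 were 8.62 and 8.5 CPM with DMSO, 2.56 and 3.41 with nutlin, 7.85 and 6.05 with GSK2830371 and 3.04 and 3.07 with the combination. It too was separated from DMSO, with log2 fold changes of -2.03 (SE 0.11, adjusted p 4.79e-07) and -1.50 (SE 0.16, adjusted p 9.12e-06). The remaining members lowered in both lines were *FANCA* (-2.67 in TPC1 and -1.48 in K1), *FANCG* (-1.66 and -1.28), the ligase *FANCL* (-1.30 and -1.30), the translocase *FANCM* (-1.63 and -0.86) and *UBE2T* (-2.97 and -1.42).

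*FANCF*, an adaptor of the core, was the member that did not fall. It was at 7.62 and 7.66 CPM with DMSO, 9.91 and 9.23 with nutlin, 11.4 and 9.58 with GSK2830371 and 7.13 and 7.3 with the combination in TPC1. For K1 the values were 12.1 and 12.1 CPM with DMSO, 12.4 and 12 with nutlin, 13.9 and 12.8 with GSK2830371 and 12.3 and 12.4 with the combination. Its nutlin libraries lay above DMSO in TPC1 and around it in K1, and neither change was called, at 0.35 (SE 0.11, adjusted p 0.0262) and 0.02 (SE 0.09, adjusted p 0.906). Both substrates of the core fell in both lines. *FANCI* was at 123 and 117 CPM with DMSO, 21.1 and 19.6 with nutlin, 113 and 109.9 with GSK2830371 and 17.3 and 15.8 with the combination in TPC1. In K1, *FANCI* was at 97.9 and 92.5 CPM with DMSO, 37.6 and 38 with nutlin, 66.2 and 79.5 with GSK2830371 and 33.3 and 38.1 with the combination. Every nutlin library was below every DMSO library, and the log2 fold changes were -2.53 (SE 0.08, adjusted p 2.49e-08) and -1.32 (SE 0.08, adjusted p 6.27e-08). Its partner *FANCD2* changed by -1.97 in TPC1 and -1.18 in K1, with a pseudogene copy, *FANCD2P2*, that could take part of its reads.

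Of the genes that sense and resect breaks, the exonuclease *EXO1*, which digests long stretches of one strand, had the largest fall of all 44 members in TPC1. *EXO1* was at 65 and 70.8 CPM with DMSO, 2.4 and 1.94 with nutlin, 54.3 and 57 with GSK2830371 and 1.6 and 1.97 with the combination in TPC1. K1 libraries held 51.7 and 58.9 CPM with DMSO, 11.3 and 11.1 with nutlin, 44.7 and 45.7 with GSK2830371 and 9.13 and 9.03 with the combination. The DMSO and nutlin values of this gene, whose promoter is printed above, stood far apart in both lines, and its log2 fold changes were -4.97 (SE 0.13, adjusted p 1.01e-08) in TPC1 and -2.30 (SE 0.08, adjusted p 2.74e-10) in K1. *RBBP8*, which starts resection together with the MRE11 nuclease, was at 52.5 and 54.7 CPM with DMSO, 18.8 and 20.1 with nutlin, 58.1 and 56.7 with GSK2830371 and 29.7 and 32 with the combination in TPC1. The same gene in K1 was at 54.9 and 56.3 CPM with DMSO, 26.2 and 21.3 with nutlin, 36.7 and 40.5 with GSK2830371 and 24 and 25.5 with the combination. It was lowered without overlap, with log2 fold changes of -1.43 (SE 0.08, adjusted p 1.02e-06) and -1.22 (SE 0.08, adjusted p 1.52e-07). Values of the sensor complex itself were smaller: -0.73 and -0.89 for *MRE11A*, called in both lines, -0.84 in TPC1 (called) and -0.30 in K1 (not called) for *NBN*, and 0.11 and 0.05 for *RAD50*, called in neither. *RAD50* shares 8124 of its 10565 exon bases with a gene without a symbol, so its count is uncertain.

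Nutlin lowered all 7 helicases and junction processing genes in TPC1, against 18% of all genes, and 6 of 7 in K1, against 5.43%. *BLM*, the helicase that dissolves double junctions, had 26.3 and 24.7 CPM with DMSO, 1.27 and 1.57 with nutlin, 24 and 23.7 with GSK2830371 and 1.57 and 1.48 with the combination in TPC1. *BLM* in K1 had 27.1 and 27.3 CPM with DMSO, 6.44 and 6.24 with nutlin, 16.3 and 20.7 with GSK2830371 and 4.3 and 6.33 with the combination. The pairs did not overlap, and the changes were -4.10 (SE 0.12, adjusted p 1.23e-08) and -2.09 (SE 0.14, adjusted p 8.84e-08). *RMI1*, a scaffold of the same dissolution complex, had 22.7 and 20.3 CPM with DMSO, 5.49 and 6.73 with nutlin, 22 and 21.5 with GSK2830371 and 8.16 and 8.0 with the combination in TPC1. Its levels in K1 were 21.1 and 19.7 CPM with DMSO, 8.76 and 8.41 with nutlin, 13.6 and 15.3 with GSK2830371 and 8.66 and 10.4 with the combination. Its log2 fold changes were smaller than those of *BLM* in both lines, -1.76 (SE 0.11, adjusted p 1.55e-06) and -1.24 (SE 0.10, adjusted p 6.46e-07), again without overlap. *HELLS*, a chromatin remodeler of the helicase family, had 52.4 and 46.4 CPM with DMSO, 7.24 and 6.37 with nutlin, 45.3 and 44.9 with GSK2830371 and 6.43 and 6.78 with the combination in TPC1. The K1 values of *HELLS* were 27.9 and 29.6 CPM with DMSO, 5.37 and 5.3 with nutlin, 17.9 and 20.04 with GSK2830371 and 4.55 and 4.96 with the combination. Nutlin and DMSO were apart in both lines, with log2 fold changes of -2.84 (SE 0.10, adjusted p 3.87e-08) and -2.42 (SE 0.09, adjusted p 5.58e-10).

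*PIF1*, a helicase that unwinds G-quadruplexes and acts in break-induced replication, differed between the libraries of 3 of the 4 K1 groups. In TPC1 it was at 14.7 and 13.1 CPM with DMSO, 1.1 and 1.24 with nutlin, 11.6 and 9.43 with GSK2830371 and 0.624 and 1.29 with the combination, with nutlin far under DMSO. K1 values of *PIF1* were 8.27 and 6.3 CPM with DMSO, 3.39 and 5.24 with nutlin, 4.48 and 7.31 with GSK2830371 and 1.07 and 1.05 with the combination, so that the nutlin pair was below DMSO but close to it. The changes were -3.51 (SE 0.24, adjusted p 2.82e-06) in TPC1 and -0.73 (SE 0.23, adjusted p 0.0268) in K1. The K1 call was lost without DMSO library 1 (log2 fold change -0.52, adjusted p 0.184) and without nutlin library 1 (-0.45, adjusted p 0.25). The others lowered in TPC1 were *EME1*, a subunit of a junction resolvase, at -3.24, *RMI2*, a subunit of the BLM complex, at -1.22, and the helicase *WRN* at -1.01. In K1 these were at -1.39, -1.67 and -0.56, the last not called.

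Classical end joining held small changes. *XRCC6*, the Ku70 subunit of the ring that first binds ends, was at 613 and 691 CPM with DMSO, 372 and 375 with nutlin, 538 and 573 with GSK2830371 and 299.9 and 312 with the combination in TPC1. *XRCC6* levels in K1 were 442 and 454 CPM with DMSO, 387 and 401 with nutlin, 450.3 and 440.4 with GSK2830371 and 376 and 371 with the combination. Nutlin lay below DMSO in both lines, and the fold limit was passed in TPC1: -0.77 (SE 0.09, adjusted p 6.3e-05) there and -0.17 (SE 0.05, adjusted p 0.0183) in K1. The tested difference between the lines was 0.56 (SE 0.11, adjusted p 0.00127), under the fold limit. *XRCC6* has 5 pseudogene copies that could share its reads, so its count is uncertain. Its partner *XRCC5* had log2 fold changes of -0.66 in TPC1 and -0.30 in K1, and the end bridging factor *NHEJ1* -0.65 and -0.30, called in TPC1 and not in K1, with no called difference between the lines. Without TPC1 DMSO library 3, *XRCC5* (-0.56) and *NHEJ1* (-0.58) were no longer called, nor was *XRCC5* with the trend in GC content and length removed (-0.51). *NHEJ1* shares 2034 of its 10442 exon bases with a gene without a symbol.

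*LIG4*, the ligase that seals the ends, was the 1 member raised by nutlin in TPC1. It was at 11.8 and 10.6 CPM with DMSO, 16.1 and 17.4 with nutlin, 12.4 and 12.5 with GSK2830371 and 16.5 and 18.2 with the combination in TPC1. Its K1 levels were 14.6 and 16.7 CPM with DMSO, 21.9 and 16.7 with nutlin, 10.7 and 12.2 with GSK2830371 and 20.1 and 21.2 with the combination. The nutlin libraries lay above DMSO in TPC1 and overlapped it in K1, and the log2 fold changes were 0.63 (SE 0.10, adjusted p 0.000525) in TPC1, called, and 0.31 (SE 0.12, adjusted p 0.0612) in K1, not called. The TPC1 call was at the fold limit and was lost without DMSO library 3 (0.57, adjusted p 0.0034) or nutlin library 3 (0.57, adjusted p 0.00823). *XRCC4*, the partner that holds LIG4 in place, was at 20.5 and 23.6 CPM with DMSO, 16.8 and 19.98 with nutlin, 17.6 and 20.4 with GSK2830371 and 13.6 and 16.3 with the combination in TPC1. In K1 the partner was at 11.2 and 11 CPM with DMSO, 7.96 and 7.46 with nutlin, 7.76 and 7.74 with GSK2830371 and 7.85 and 8.16 with the combination. Its nutlin libraries lay below DMSO in both lines, and neither change was called (-0.23, SE 0.14, adjusted p 0.181 in TPC1 and -0.52, SE 0.09, adjusted p 0.000964 in K1). With the trend in GC content and length removed, the TPC1 value turned to 0.07.

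Alternative end joining and mismatch repair each held 1 gene with a large fall and 1 with a smaller value. *POLQ*, the polymerase of microhomology-mediated joining, was at 34.9 and 26 CPM with DMSO, 2.96 and 2.49 with nutlin, 33.6 and 27.4 with GSK2830371 and 2.28 and 1.91 with the combination in TPC1. *POLQ* values for K1 were 53.5 and 49.4 CPM with DMSO, 18.5 and 21.1 with nutlin, 29.3 and 37.3 with GSK2830371 and 15.6 and 20.5 with the combination. Nutlin and DMSO did not overlap, and the changes were -3.47 (SE 0.18, adjusted p 4.96e-07) and -1.36 (SE 0.12, adjusted p 1.95e-06). *PARP1*, the break sensor that also opens this route, had -1.01 in TPC1 (called) and -0.54 in K1 (not called). *MSH6*, a mismatch recognition subunit whose promoter is printed above, was at 146 and 137 CPM with DMSO, 20.8 and 20.1 with nutlin, 124 and 118 with GSK2830371 and 14.6 and 15.6 with the combination in TPC1. Levels of *MSH6* in K1 were 139.7 and 152 CPM with DMSO, 71 and 68 with nutlin, 123 and 122 with GSK2830371 and 66.1 and 65.1 with the combination. It fell in both lines without overlap, with log2 fold changes of -2.76 (SE 0.08, adjusted p 1.56e-08) and -1.06 (SE 0.06, adjusted p 1.15e-08).

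*PMS2*, the endonuclease subunit of mismatch repair, is uncertain because 12 pseudogene copies could share its reads. It was at 21.8 and 21 CPM with DMSO, 17.5 and 18.1 with nutlin, 24.6 and 23.4 with GSK2830371 and 22.1 and 19.1 with the combination in TPC1. For K1 its values were 8.56 and 8.75 CPM with DMSO, 7.93 and 9.26 with nutlin, 8.48 and 9.16 with GSK2830371 and 7.69 and 8.44 with the combination. Nutlin lay just below DMSO in TPC1 and on both sides of it in K1, and neither change was called (-0.23, SE 0.09, adjusted p 0.0456 in TPC1 and 0.01, SE 0.11, adjusted p 0.978 in K1). Single copies that could share reads also exist for *BRCA1*, *RAD51AP1*, *MRE11A* and *RBBP8*, and 2 for *PARP1*.

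**Figure D2:**
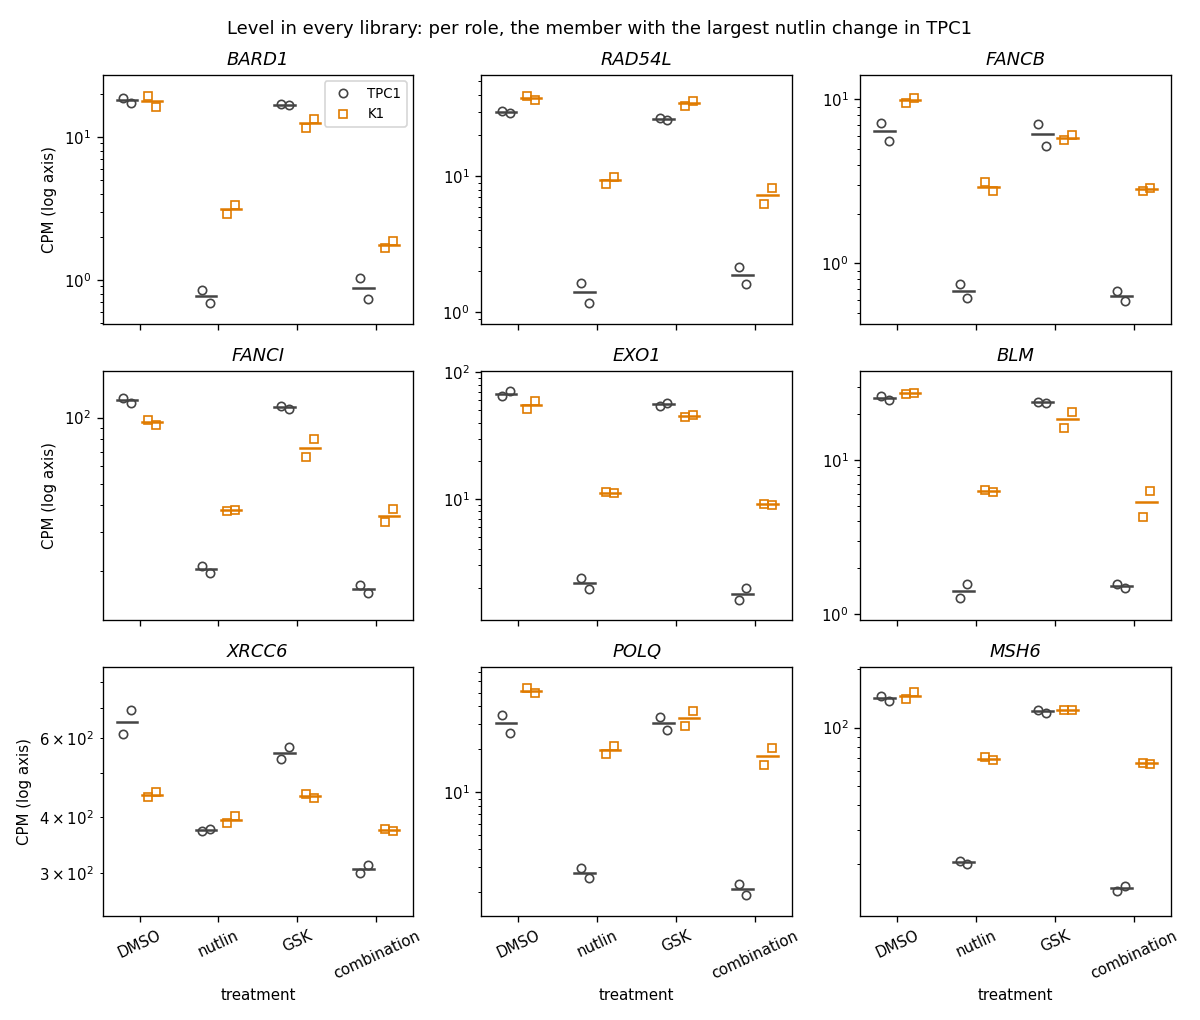
Each panel is the member with the largest nutlin change in TPC1 of its role, with treatment on the x axis and CPM on a logarithmic y axis; points are single libraries (circles TPC1, squares K1), bars are means of 2, and GSK is GSK2830371. *EXO1* drops from 65 and 70.8 CPM to 2.4 and 1.94 in TPC1 with nutlin, while *XRCC6* goes from 613 and 691 to 372 and 375, and in TPC1 the GSK points lie near those of DMSO.

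Whether the lines differed in their response to nutlin was tested as the difference of the K1 and TPC1 log2 fold changes in a fit of all 16 libraries. Of the 44 members, 21 had a higher value in K1, meaning a smaller fall, against 8.73% of the 16738 genes tested. edgeR called 0 lower and DESeq2 0, with 3 at an unadjusted p under 0.05, against 10.5% of all genes. The median difference was 0.53 for the members and -0.03 for all genes. By class, 15 of 23 recombination and Fanconi genes differed, 4 of 12 resection and helicase genes and 2 of 9 end joining and mismatch repair genes. The largest differences were those of *PIF1*, 2.74 (SE 0.38, adjusted p 3.83e-05), *EXO1*, 2.64 (SE 0.16, adjusted p 5.83e-09), *RAD54L*, 2.39 (SE 0.20, adjusted p 2.36e-07), and *POLQ*, 2.07 (SE 0.23, adjusted p 5.36e-06). In the last group only *POLQ* and *MSH6* (1.66) were called. *RAD54B* (-0.05), *FANCL* (-0.04), *RBBP8* (0.17) and *HELLS* (0.38) were lowered in both lines and their difference was not called. The call of *FANCM* (0.73, SE 0.19, adjusted p 0.00853) was lost without TPC1 DMSO library 1, where it was 0.56.

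**Figure D3:**
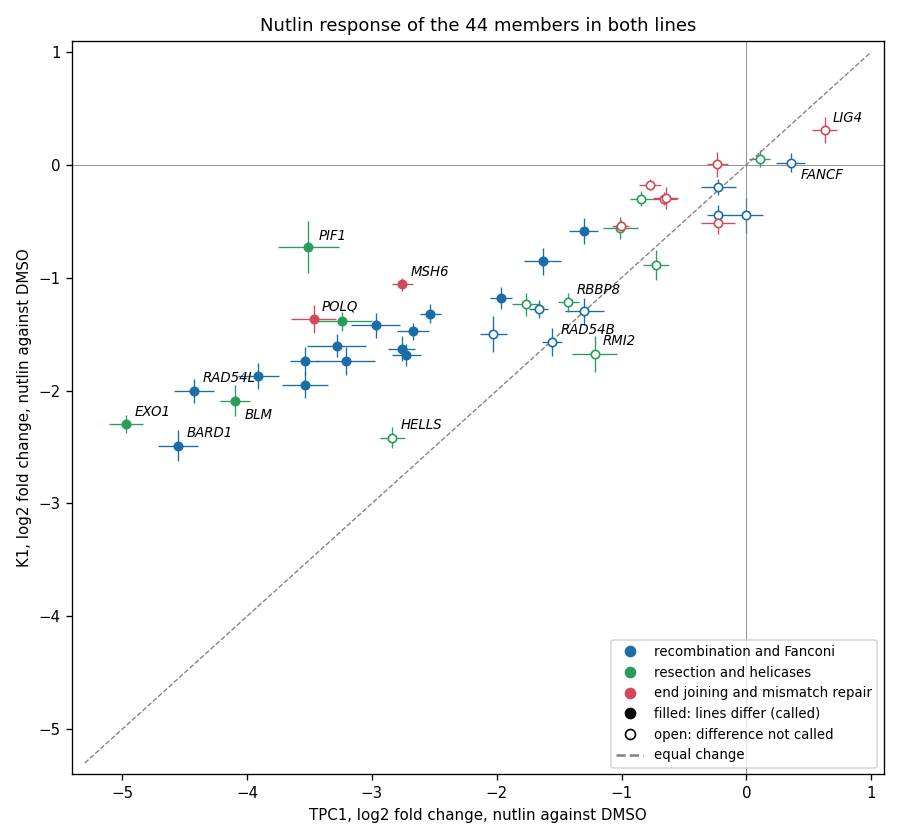
Each point is a member, placed by its nutlin log2 fold change in TPC1 (x axis) and K1 (y axis) with standard errors, colored by class; filled points are members whose lines differed by the test, and the dashed line marks equal change. *PIF1* lies furthest above the line, at -3.51 in TPC1 and -0.73 in K1, and *RAD54B* lies on it at -1.56 and -1.57.

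The lines were also compared before treatment, with the DMSO libraries that the nutlin comparisons share. With DMSO, 6 members were lower in K1 than in TPC1, against 21.2% of all genes, and 7 were higher, against 25%. At this fold limit the shares of the 44 are below those of all genes. Without a fold minimum 17 members were lower and 15 higher, against 5522 and 5809 of 16738 genes. The lower share of the members was then above that of all genes. The median difference of the members was -0.08. Lower in K1 were *RAD54B* (-0.88), *FANCE* (-0.65), *PIF1* (-0.94), *HELLS* (-0.78), *XRCC4* (-1.0) and *PMS2* (-1.31). Higher in K1 were *PALB2* (1.04), *BRCA2* (1.02), *BRIP1* (0.75), *FANCB* (0.64), *FANCF* (0.66), *RMI2* (0.83) and *POLQ* (0.76). *PMS2*, at 21.8 and 21 CPM in TPC1 and 8.56 and 8.75 in K1, differed most. *FANCB* (0.48) and *POLQ* (0.58) were not called without TPC1 DMSO library 3, and the calls of *BRIP1* (0.49), *FANCB* (0.52), *POLQ* (0.52) and *FANCE* (-0.57) were lost, and *BRCA2* was at 0.66, with the trend in GC content and length removed. *EXO1* (-0.30), *BLM* (0.09), *BARD1* (-0.03) and *RAD54L* (0.34), which fell further in TPC1, were not called between the untreated lines. *PIF1*, *POLQ*, *BRCA2*, *BRIP1* and *FANCB*, which also fell further in TPC1, were called between them, as listed above.

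GSK2830371 alone addressed PPM1D inhibition without an MDM2 inhibitor. In TPC1 the summed level of the members was 3032 and 3071 CPM, next to 3317 and 3372 with DMSO. edgeR called 0 members lowered and 0 raised, against 0.681% and 0.72% of all genes; at an unadjusted p under 0.05 there were 8 lower and 1 higher, and DESeq2 called 0 of each. The shares of all genes fell to 0.0526% and 0.092% without GSK2830371 library 3 and to 0.112% and 0.177% without library 1, and were also lower by over 1.5 times without any 1 DMSO or nutlin library (0.276% to 0.369% and 0.289% to 0.409%). The members lay between -0.47 and 0.40, with a median of -0.13 beside -0.01 for all genes. *EXO1* (-0.34), *BLM* (-0.14) and *BARD1* (-0.15) had GSK2830371 libraries just below DMSO, and *FANCF* (0.40, SE 0.11, adjusted p 0.0921) had them above it, none called.

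In K1, GSK2830371 alone lowered 7 of the 44 members, against 1.49% of all genes. It raised 0 by edgeR and by DESeq2, with 0 higher at an unadjusted p under 0.05, against 0.736%. The summed level was 2265 and 2412 CPM, next to 2748 and 2759 with DMSO, and the median -0.32 beside 0.02 for all genes. The members called were *BRCA1* (-0.64), *BRIP1* (-0.63), *RAD51AP1* (-0.69), *RAD54B* (-0.83), *FANCB* (-0.75), *HELLS* (-0.59) and *POLQ* (-0.62). In *RAD54B* the GSK2830371 libraries held 11 and 14.1 CPM and the DMSO libraries 22.2 and 22.9, without overlap. In *BRIP1* they held 26.1 and 30.1 beside 43.5 and 43.9, also apart. The count depended on single libraries, being 2 without GSK2830371 library 1, against 0.587% of all genes, and 15 without GSK2830371 library 2, against 3.27%. *HELLS* was also lost without DMSO library 2 (-0.55) and *POLQ* without DMSO library 1 (-0.56). With the trend in GC content and length removed the count was 1, *RAD54B*, against 47 of the 14841 genes then tested. Whether the lines differed in this response was not tested.

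The combination was first compared with DMSO, the control shared with the nutlin comparison above. In TPC1 the summed level was 1291 and 1340 CPM, and the combination lowered 35 of the 44 members, against 21.7% of all genes, and raised 1, against 22.5%. The medians were -1.80 for the members and 0.00 for all genes, and by class -2.76 (recombination and Fanconi), -1.14 (resection and helicases) and -1.02 (end joining and mismatch repair). *EXO1* was again lowest, at -5.17 (SE 0.14, adjusted p 5.61e-09), followed by *BARD1* at -4.34 and *BLM* at -4.01. The raised member was *LIG4*, 0.69 (SE 0.10, adjusted p 0.000203). In K1 the summed level was 1564 and 1603 CPM, and 32 members were lowered, against 8.09% of all genes. edgeR and DESeq2 raised 0, with 2 higher at an unadjusted p under 0.05, against 7.62%. The K1 medians were -1.48 for all members and -1.73, -1.47 and -0.50 in the same classes. *BARD1* had the lowest value there, -3.36 (SE 0.15, adjusted p 1.03e-09), and *PIF1* came next, -2.80 (SE 0.29, adjusted p 3.65e-06). The K1 call of *RAD51B* (-0.61) was lost without DMSO library 2 (-0.42), without combination library 2 (-0.55), with the trend in GC content and length removed (-0.56) and with scaling by library size alone (-0.58).

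The combination was then set against nutlin alone, which asks what PPM1D inhibition added once MDM2 was inhibited. In TPC1 it raised 1 member, *RBBP8*, against 6.46% of all genes, and lowered 0 by edgeR and by DESeq2, with 8 lower at an unadjusted p under 0.05, against 5.66%. The median was -0.05, beside 0.01 for all genes. *RBBP8* held 18.8 and 20.1 CPM with nutlin and 29.7 and 32 with the combination, and remained under its 52.5 and 54.7 with DMSO. Its change against nutlin was 0.68 (SE 0.08, adjusted p 0.000657). The TPC1 count of raised members was larger without combination library 1. In K1 the combination lowered 3 members further, against 1.52% of all genes, and raised 0 by edgeR and by DESeq2, with 0 higher at an unadjusted p under 0.05, against 1.16%. The K1 median was -0.17, beside 0.00 for all genes. *PIF1* went from 3.39 and 5.24 CPM with nutlin to 1.07 and 1.05, a change of -2.08 (SE 0.32, adjusted p 0.00109). *BARD1* (-0.87, SE 0.19, adjusted p 0.00896) and *BRIP1* (-0.66, SE 0.14, adjusted p 0.00666) were the others, both without overlap. *BARD1* and *BRIP1* were lost without combination library 1 (adjusted p 0.0698 and 0.0705), *BARD1* also without nutlin library 2 (0.111) and *BRIP1* without nutlin library 1 (0.0721).

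**Figure D4:**
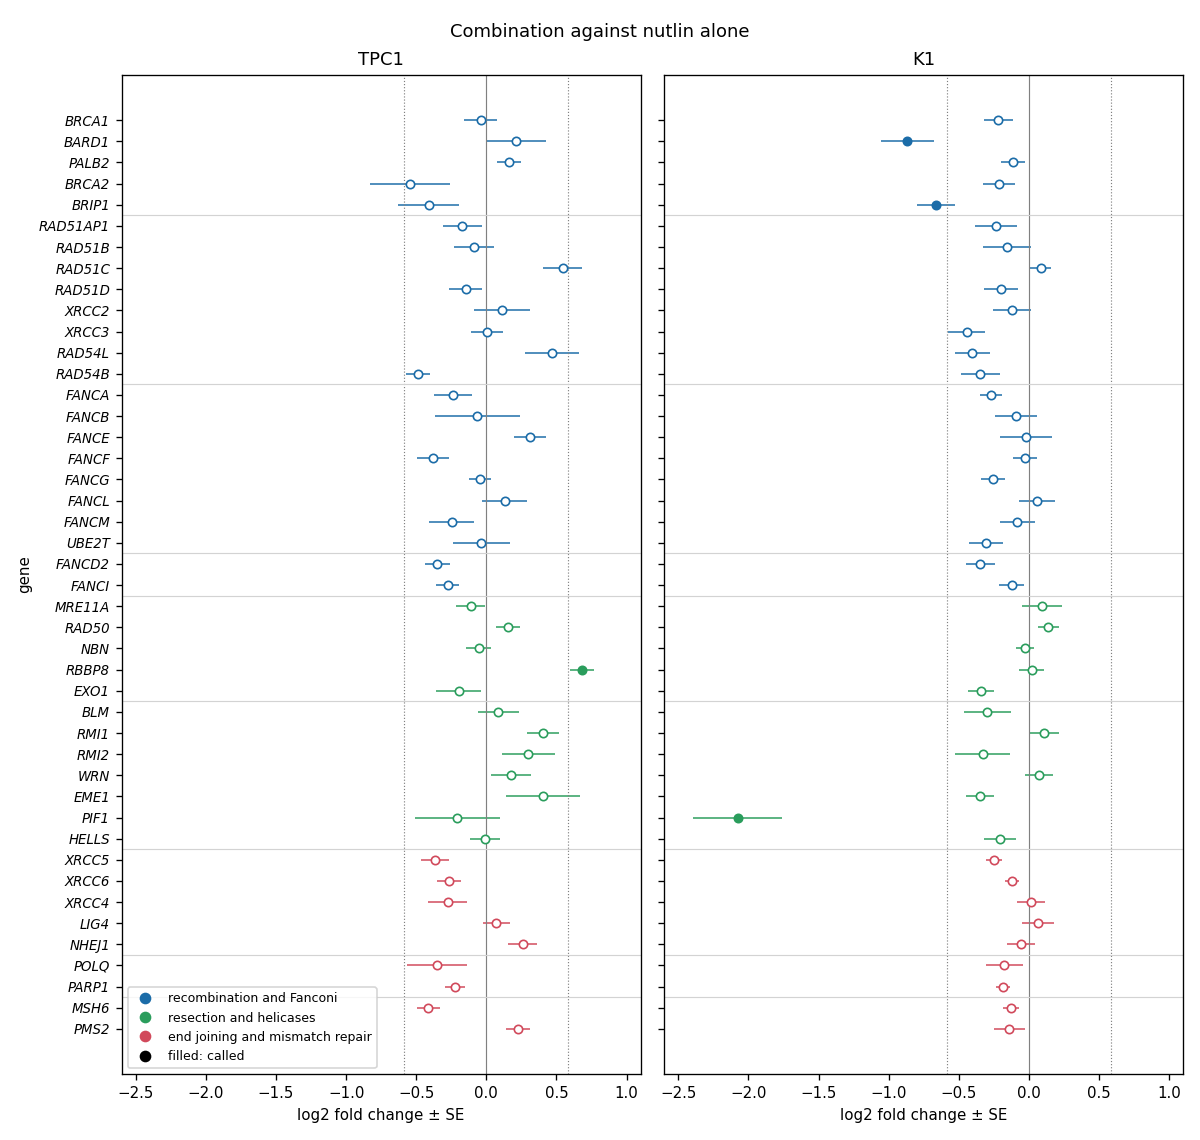
Each row is a member and the x axis is its log2 fold change, with its standard error, for the combination against nutlin alone in TPC1 (left) and K1 (right); colors are classes, filled points are called and dotted lines mark the fold limit. Most members lie within the dotted lines, *RBBP8* is filled on the right side at 0.68 in TPC1, and *PIF1* is furthest left at -2.08 in K1.

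The interaction of the agents, the combination effect less the sum of the single effects on the log2 scale, was called for few members. In TPC1, 1 member was below 0, *FANCF*, against 3.5% of all genes, and 1 above, *RBBP8*, against 2.82%. With the library number as a replicate block, 2 members were below 0 and 4 above, against 859 and 714 of 15273 genes. *FANCF*, at -0.78 (SE 0.16, adjusted p 0.0216), had its libraries above DMSO with each agent alone and just below DMSO with both. *RBBP8*, at 0.64 (SE 0.12, adjusted p 0.014), fell less with both agents than with nutlin alone. The *FANCF* call was lost without GSK2830371 library 1 (adjusted p 0.0898), combination library 3 (0.0528), nutlin library 1 (0.0917) or nutlin library 3 (0.0747). *RBBP8* was lost without either GSK2830371 library (0.0599 and 0.065), either nutlin library (0.0806 and 0.058) or combination library 3 (0.57 on the log2 scale), and with scaling by library size alone (0.565). In K1, 1 member was below 0, *PIF1*, against 0.654% of all genes, and 2 above, *FANCB* and *RMI1*, against 1.79%. *PIF1*, at -1.78 (SE 0.39, adjusted p 0.0183), was not called without either combination library (adjusted p 0.0553 and 0.0962) or nutlin library 2 (0.131). *FANCB*, at 0.66 (SE 0.19, adjusted p 0.046), lost its call without any 1 of the K1 libraries other than GSK2830371 library 2 (adjusted p 0.0541 to 0.181). *RMI1*, at 0.59 (SE 0.14, adjusted p 0.0254), lost it without DMSO library 1, GSK2830371 library 1, combination library 2 or either nutlin library (0.0523 to 0.151). With the trend in GC content and length removed no member had a called K1 interaction, against 40 genes below 0 and 29 above of 14841. *RMI1* was then at 0.21 (adjusted p 0.419), *FANCB* at 0.35 (0.366) and *PIF1* at -1.61 (0.0715). DESeq2 did not call *FANCB* (adjusted p 0.117) and gave no adjusted p for *PIF1*. The K1 count above 0 was 9 without GSK2830371 library 2, against 3.68% of all genes, and 4 without nutlin library 1, against 2.86%, and the TPC1 count 2 without DMSO library 1 (2.86%) or combination library 1 (3.24%). Without 1 library, the shares of all genes below and above 0 ran from 0.0442% and 0.0821% (without nutlin library 2) to 0.883% and 3.68% in K1, and from 1.27% and 0.999% (without nutlin library 3) to 4.34% and 3.24% in TPC1.

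Other genes of the same pathways, named by function, were examined for nutlin as well. Of 30 other recombination genes, 13 were lowered and 2 raised in TPC1 (median -0.42), and 12 and 1 in K1 (-0.40). Among all genes tested 18% were lowered and 17.5% raised in TPC1, and 5.43% and 3.84% in K1. *EME2*, a resolvase subunit, rose most, 1.95 (SE 0.27, adjusted p 0.000233) and 0.61 (SE 0.16, adjusted p 0.0112), opposite to its relative *EME1*. Of 13 other Fanconi genes, 7 were lowered in TPC1 (-1.09) and 5 in K1 (-0.15), the largest fall being that of *USP1*, which removes ubiquitin from FANCD2 (-2.80, SE 0.10, adjusted p 4.6e-08 in TPC1 and -1.48, SE 0.09, adjusted p 5.86e-08 in K1).

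Lists of further end joining and mismatch repair genes were read in the same way. Of 12 other end joining genes, 4 were lowered and 2 raised in TPC1 (-0.16), and 3 lowered in K1 (-0.26), beside the shares of all genes given above, 18%, 17.5% and 5.43%. *PRKDC*, the end joining kinase, was at 1913 and 1219 CPM with DMSO and 912 and 751 with nutlin in TPC1, and in K1 at 956 and 934 with DMSO and 620.2 and 613 with nutlin. It was lowered in both lines without overlap (-0.88, SE 0.23, adjusted p 0.00999 in TPC1 and -0.60, SE 0.06, adjusted p 3.78e-06 in K1). *RIF1*, which shields ends from resection, fell most (-2.01, SE 0.22, adjusted p 4.9e-05 in TPC1 and -0.83, SE 0.09, adjusted p 1.31e-05 in K1), and *APLF*, a scaffold of end joining, rose in TPC1 (0.98, SE 0.20, adjusted p 0.00246). Of 5 other mismatch repair genes, 2 were lowered in TPC1 (-0.18) and 1 in K1 (-0.36).

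Proliferation markers also fell with nutlin. Of 14, 13 were lowered by nutlin in TPC1 (median -3.31), against 18% of all genes, and 12 in K1 (-1.64), against 5.43%. The combination lowered 6 of the 14 below nutlin alone in TPC1 (-0.57) and 6 in K1 (-0.41), against 5.66% and 1.52%, where 0 and 3 of the 44 members were lowered (-0.05 and -0.17). Their summed level in TPC1 was 4950 and 4603 CPM with DMSO, 736 and 757 with nutlin, 3919 and 3842 with GSK2830371 and 649 and 720 with the combination. In K1 the sum was 2849 and 2730 CPM with DMSO, 979 and 1123 with nutlin, 2164 and 2406 with GSK2830371 and 748 and 810 with the combination. No marker was at 0 in any library. *MKI67*, an antigen of cycling cells, was the most abundant with DMSO, at 1430 and 1052 CPM in TPC1 and 563 and 488 in K1, and fell by 5.62 and 1.33 on the log2 scale with nutlin. The replication clamp *PCNA* was the most abundant in TPC1 with nutlin and was not called there (0.56, SE 0.12, adjusted p 0.0028) or in K1 (-0.12, SE 0.06, adjusted p 0.135). The largest K1 fall was that of the replicative helicase subunit *MCM3* (-2.42, SE 0.06, adjusted p 1.63e-11). The part of proliferation in the fall of the repair genes was not tested.

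Markers of other cell types gave few values to set beside the members. Endothelial markers summed to at most 0.325 CPM in any TPC1 library, while in K1 *KDR* was at 7.56 and 7.62 CPM with DMSO and 4.22 and 4.84 with nutlin (-0.73, SE 0.16, adjusted p 0.00308). Among immune markers *CD68*, which other cells also express, was the most abundant, at 34.2 and 36.5 CPM with DMSO and 66.3 and 71.7 with nutlin in TPC1 (1.00, SE 0.12, adjusted p 9.47e-05), with *PTPRC* at 0 in all of these libraries. Fibroblast markers summed to 23.4 and 21.0 CPM with DMSO and 10.9 and 11.2 with nutlin in TPC1, led by *PDGFRB* (-1.40, SE 0.13, adjusted p 1.72e-05), and in K1 to 17.8 and 14.1 and to 13.1 and 14.6, where *COL1A1* was lowered (-0.89, SE 0.20, adjusted p 0.00333). Of the epithelial markers, *KRT18* fell (-1.13, SE 0.12, adjusted p 4.96e-05) and *KRT19* rose (1.93, SE 0.65, adjusted p 0.0307) in TPC1. *SLC5A5*, the iodide carrier, had 0 counts with DMSO and 4 and 16 with nutlin in TPC1, and rose in K1 from 5 and 0 counts to 11 and 21 (2.85, SE 0.72, adjusted p 0.00874). Their part in the changes of the repair genes was not tested.

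**Figure D5:**
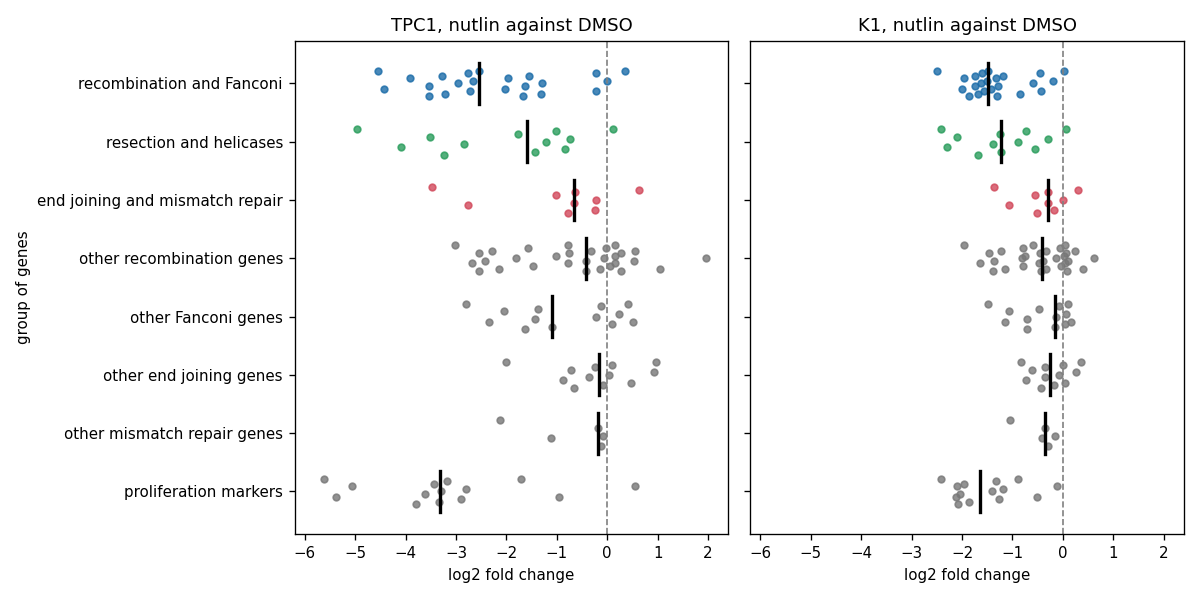
Each row is a group of genes and each point a gene at its nutlin log2 fold change (x axis) in TPC1 (left) or K1 (right); black bars are medians and the dashed line is the median of all genes tested. The medians of the recombination and Fanconi members lie left of those of the end joining and mismatch repair members, at -2.53 and -0.66 in TPC1 and -1.48 and -0.30 in K1. The proliferation markers have the lowest median in both lines, at -3.31 in TPC1.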

How the data were processed

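The authors deposited gene counts for 16 poly(A) RNA libraries. Per the submitters' processing notes, reads were aligned to hg19 with TopHat2 2.0.13, filtered with SAMtools 1.3.1 and Picard 1.129 and counted by strand with HTSeq 0.6.1. Counts were taken as deposited, and 0 columns were left out. In R 4.3.3, edgeR 4.0.16 fitted the 8 libraries of each line together, with TMM scaling and a filter of over 0.1 CPM in at least 2 libraries, and tested each contrast with the quasi-likelihood test and Benjamini-Hochberg adjustment over all genes tested. Differences between lines came from 1 fit of all 16 libraries. Calls needed an adjusted p under 0.05 and a fold change above 1.5. The variance between the libraries of a group, over that of counting, averaged 11.6 to 48.3 in TPC1 and 4.96 to 8.16 in K1, with typical (median-based) ratios of 3.83 to 10.7 and 2.45 to 3.65; members with few counts, as *BARD1* in TPC1 with nutlin (26 and 45), were limited by counting too. Alternatives were other scalings, filters and call rules, DESeq2 1.42.0, only the groups compared, a GC and length correction, a replicate block and leaving out each library. Values in every library are given for the member with the largest nutlin change in TPC1 of each role, up to 4 called per line for the interaction and for the combination against nutlin, those called against the common direction and the 4 with the largest difference between lines; members called between untreated lines and others singled out were chosen after their values were seen. From the other lists come *PRKDC*, *MKI67*, *PCNA* and, for some lists, the largest called fall and rise with nutlin; *PAX8*, *FOXE1*, *NKX2-1*, *TG*, *TSHR*, *KRT8*, *PTPRC* and *KDR* check cell types. The members and lists were chosen with earlier results of these data known.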

Additional observations from a re-analysis of the deposited data

Results flagged for a closer look

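For 21 members the nutlin response differed between the lines by the test of the difference itself, and every such member was lowered in both lines and less so in K1. The difference of the log2 fold changes, K1 less TPC1, is given for each. Among BRCA mediators it was 1.0 for *BRCA1*, 2.03 for *BARD1*, 1.64 for *BRCA2* and 1.54 for *BRIP1*. For recombination paralogs and partners it was 1.76 for *RAD51AP1*, 0.68 for *RAD51D*, 2.0 for *XRCC2*, 1.1 for *XRCC3* and 2.39 for *RAD54L*. The Fanconi genes held 1.16 for *FANCA*, 1.43 for *FANCB*, 0.73 for *FANCM*, 1.51 for *UBE2T*, 0.75 for *FANCD2* and 1.18 for *FANCI*. Resection and helicase genes held 2.64 for *EXO1*, 1.96 for *BLM*, 1.81 for *EME1* and 2.74 for *PIF1*. In end joining and mismatch repair it was 2.07 for *POLQ* and 1.66 for *MSH6*. The K1 nutlin calls of *PIF1* and *RAD51D*, unlike their differences, were lost without some single libraries, as given above. The *FANCM* difference lost its call without TPC1 DMSO library 1, and the other 20 kept theirs without any 1 library. The cause was not tested.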

How the results depend on the processing

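The counts of members lowered by nutlin or the combination stayed within 1.5 times under every alternative, from 31 to 38 (nutlin) and 30 to 37 (combination) in TPC1 and from 26 to 39 and 27 to 39 in K1, and so did the 21 members with a higher K1 nutlin response (17 to 27). The counts over all genes moved further. With a fold above 2 and with no fold minimum, nutlin lowered 1519 and 4316 of all genes in TPC1. In K1 these were 412 and 2635. For the combination they were 2006 and 4900 in TPC1 and 646 and 3523 in K1. Genes with a higher K1 response were 617 and 2448. Without a fold minimum, TPC1 had 2 members raised by nutlin, 1 lowered by GSK2830371 and 2 raised by the combination. Over the 15273 genes tested these counts were 4168, 250 and 4885. In the combination against nutlin 8 members were lowered and 3 raised, beside 1967 and 2022 of all genes. K1 then had 25 lowered by GSK2830371, 2 raised by the combination, 11 lowered in the combination against nutlin and 7 with a positive interaction. Over the 15900 genes tested these counts were 1714, 3346, 1039 and 833. In untreated K1, 17 members were lower and 15 higher, beside 5522 and 5809 of 16738 genes. With a fold above 2, 0 members stayed raised by nutlin, by the combination or against nutlin in TPC1, or had either interaction there. Over all 15273 genes the raised were 1539, 2231 and 460, and the interaction held 170 negative and 168 positive. In K1, 0 members stayed lowered by GSK2830371 or had a positive interaction, beside 17 and 25 of 15900 genes. Then 1 member was lowered in K1 against nutlin, beside 76 of 15900 genes. In untreated K1, 2 members were lower and 2 higher, beside 2169 and 3052 of 16738 genes. These changes follow from the fold limit itself.

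With the trend in GC content and length removed, GSK2830371 lowered 1 member in K1, beside 47 of 14841 genes. The positive interaction held 3 in TPC1, beside 530 of 14318 genes. In K1 it held 0 and the negative one 0, beside 29 and 40 of 14841 genes. In untreated K1, 4 members were higher, beside 3783 of 15561 genes. The share of raised genes among all called went from 33.1% to 55.7% for GSK2830371 in K1 and from 73.2% to 42.0% for the K1 interaction. Scaled by library size alone, the positive interaction held 0 members in TPC1 and 5 in K1, beside 338 of 15273 and 404 of 15900 genes. The raised share then went from 51.4% to 66.1% (GSK2830371) and 44.7% to 32.4% (interaction) in TPC1. In K1 it went from 43.2% to 53.8% (combination against nutlin) and 73.2% to 84.0% (interaction). Without the filter, the TPC1 positive interaction held 3 members, beside 576 of 19383 genes. By DESeq2 it held 2, beside 486 of 15273, while the K1 negative one held 0, beside 82 of 15900. The cause was not tested.

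The labels give samples of a number nothing in common beyond it, with 2 numbers per line. In the counts, every TPC1 library numbered 3 was deeper than every TPC1 library numbered 1. Deviations of same-numbered libraries correlated at 0.496 to 0.696 over 12303 genes in TPC1 and at -0.357 to 0.376 over 12546 in K1. With the number as a replicate block, the TPC1 interaction held 2 negative and 4 positive members. The K1 positive one held 1, beside 264 of 15900 genes. The all-gene calls for GSK2830371 in TPC1 went from 104 lowered and 110 raised to 241 and 239, and of the TPC1 interaction from 534 and 431 to 859 and 714. *FANCB* and *POLQ* were not called between untreated lines under the block (0.45 and 0.54), and the *FANCB* interaction in K1 was not called (adjusted p 0.0641). No other member lost its call.

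Without 1 library, the lone library being assumed to vary like the other groups, these counts moved: raised by nutlin in TPC1 0 to 1; raised against nutlin in TPC1 1 to 2; interaction in TPC1 0 to 1 negative and 0 to 2 positive. In K1, GSK2830371 lowered 2 to 15, the combination against nutlin 1 to 4, and the interaction was 0 to 1 negative and 0 to 9 positive. Over all genes, calls for the combination against nutlin in K1 went from 242 lowered and 184 raised to 140 and 87 without nutlin library 2, the raised ones to 113 and 105 without combination libraries 1 and 2, and those raised in TPC1 from 986 to 655 without nutlin library 3.

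Signs were followed for called members in every comparison and for uncalled members with nutlin only, and those that changed were of uncalled members. *PMS2* in K1 (0.0055) was -0.0066 by library size alone, and -0.128 to 0.122 without 1 library. *RAD50* in K1 (0.0549) was -0.0494 to 0.154 without 1 library. *RAD51B* in TPC1 (-0.0062) was 0.0909 with the GC trend removed and -0.147 to 0.0971 without 1 library. *XRCC4* in TPC1 (-0.23) was 0.0656 with the GC trend removed. A reference gave GC content and length for 83.27% of genes.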
